A study of Mus musculus with 12 samples.

Results

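The genes described are 10 of epithelial junctions and of the cytoskeleton of simple epithelia, followed across mouse cells differentiated in culture: the claudins Cldn3, Cldn4, Cldn6 and Cldn7, the keratins Krt8, Krt18 and Krt19, and Epcam, Tjp1 and Ocln. They were chosen by name, with earlier results of these data known and with no threshold on their values, and are 10 of 24736 genes in the deposited table. Polyadenylated RNA of 12 cultures was sequenced at 72 h of differentiation, in 4 groups of 3 biological replicates. All groups were mouse embryonic stem cells cultured with 10 ng/ml bFGF and 5 µM LGK974, a compound that blocks the release of WNT ligands. EpiLC (epiblast-like cells) were wild type and received nothing else. CEpiLC (caudal epiblast-like cells) were wild type and received CHIR99021, a GSK3 inhibitor that activates WNT signalling, from day 2 to day 3. SOX2-OFF and SOX2-ON cells received CHIR99021 over the same interval and carried the genotype labelled Sox2-/-, with a doxycycline-inducible Sox2. Both were grown with doxycycline as stem cells. In SOX2-OFF cells it was withdrawn for differentiation, and in SOX2-ON cells it was kept at 1 µg/ml. The inducible line was a picked clone of the TetON line that served as wild type, with the transgene in Hprt and the transactivator in Rosa26, so clone and genotype cannot be told apart when it is set against wild type. The stem cells were kept on feeder cells, which were removed before differentiation.

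Claudins are membrane proteins with extracellular loops that pair between neighbouring cells and form the strands of tight junctions. Occludin (Ocln) sits in the same strands, and ZO-1 (Tjp1) ties them to actin. Keratins 8, 18 and 19 build the intermediate filaments of simple epithelia, in which type II Krt8 pairs with type I Krt18 or Krt19. Epcam is a surface glycoprotein of epithelia and pluripotent cells that binds claudin 7. The epiblast is an epithelium, and in the primitive streak its cells lose junctions under SNAI1 and related repressors, which bind the E-box CAGGTG.

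In GRCm38.p6, the mm10 assembly that the authors used, Cldn3 (chr5:134986214-134987476) and Cldn4 (chr5:134945123-134946934) are neighbours, 39279 bp apart with 0 annotated genes between them. Krt8 (chr15:101996711-102004342) and Krt18 (chr15:102028216-102032026) lie 23873 bp apart. Cldn7 (chr11:69964779-69967886) and Krt19 (chr11:100140810-100145926) share chromosome 11, and Cldn6 (chr17:23679348-23682446) and Epcam (chr17:87635979-87651127) share chromosome 17. Tjp1 (chr7:65296165-65527850) and Ocln (chr13:100496504-100552718) stand alone.

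Promoter sequence from RefSeq (GRCm38.p6) was at hand for 9 of the 10 genes, in 11 windows that reach from 250 bases before to 50 after a start site. The E-box CAGGTG, read on either strand, was present in 9 of these 11 windows. It was present in 20.2% of all 32851 windows and in 19.7% of the 21263 of protein-coding genes. By gene, 8 of the 9 had it. The 2 windows of Ocln overlap and share a match, so the 11 windows are not independent. The 2 windows without it were that of Tjp1 and 1 of 2 for Cldn7. The SOX motif ATTGTT and the TCF/LEF motifs CTTTGAA and CTTTGAT were found in 0 of the 11, against 10.7% and 8.65% of all windows. These are matches of letters and say nothing of binding. The 250 upstream bases are shown for Cldn4, Krt8 and Cldn3, whose mean levels differed most between groups among the genes with a window, with E-box matches in capitals. The Cldn4 match begins 14 bases before the start site, and a second lies past it. That of Krt8 begins 111 bases before its start site. The only Cldn3 match lies 31 bases past its start site, outside the bases shown.
Cldn4 (chr5:134946935-134947184, minus strand): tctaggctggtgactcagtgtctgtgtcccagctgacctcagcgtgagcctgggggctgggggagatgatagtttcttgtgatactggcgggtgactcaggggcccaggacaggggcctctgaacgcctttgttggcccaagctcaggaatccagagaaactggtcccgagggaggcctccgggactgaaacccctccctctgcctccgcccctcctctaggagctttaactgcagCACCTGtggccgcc
Krt8 (chr15:102004343-102004592, minus strand): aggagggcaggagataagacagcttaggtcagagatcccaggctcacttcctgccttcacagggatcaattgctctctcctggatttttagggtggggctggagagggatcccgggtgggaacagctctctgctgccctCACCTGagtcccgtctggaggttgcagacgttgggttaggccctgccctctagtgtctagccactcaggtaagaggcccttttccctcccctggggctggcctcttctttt
Cldn3 (chr5:134985964-134986213, plus strand): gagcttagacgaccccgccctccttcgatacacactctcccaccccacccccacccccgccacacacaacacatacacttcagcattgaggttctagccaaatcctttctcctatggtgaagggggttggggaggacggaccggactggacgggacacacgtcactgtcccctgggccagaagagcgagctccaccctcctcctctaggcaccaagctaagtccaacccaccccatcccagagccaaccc

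Library totals ran from 10408252 to 27337740 expected counts, the read numbers that RSEM assigns to genes. Levels are given as TPM, the number of a gene's transcripts scaled to a fixed total, which allow for transcript length, so genes can be set side by side. Sox2, the gene under control in the inducible line, had mean levels of 16.5 TPM in SOX2-OFF and 187 TPM in SOX2-ON, against 137 TPM in EpiLC and 10.4 TPM in CEpiLC. In the inducible line this value does not separate transcripts of the transgene from those of the edited endogenous gene, and it is not a protein level. Between the lines, whole chromosomes differed: the median gene of chromosome 11 was lower in the inducible line by -0.55 (log2, SOX2-OFF against CEpiLC, 683 genes), and those of chromosomes 6 and 8 were higher by 0.54 and 0.57. The shift on the other chromosomes of the 10 genes was between -0.08 and 0.03. Within the line, between SOX2-ON and SOX2-OFF, the chromosome 11 shift was -0.01.

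All 10 genes were expressed in every library and passed the filter on low counts. The lowest value was 45 expected counts, for Cldn3 in SOX2-OFF replicate 3. In EpiLC the order of mean levels was led by Epcam at 271 TPM, with Cldn6 at 185 TPM and Cldn7 at 145 TPM next, whose values overlapped, and it ended with Ocln at 16.9 TPM. In CEpiLC Krt8 led at 181 TPM, within the spread of Epcam at 158 TPM. In SOX2-OFF Krt8 led at 564 TPM, above Krt18 at 345 TPM with no overlap. In SOX2-ON Cldn6 led at 213 TPM and overlapped Krt8 at 196 TPM. The lowest of the 10 was Ocln in 3 groups and Cldn3 in SOX2-ON at 10.8 TPM, where Ocln stood at 15.7 TPM.

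**Figure D1:**
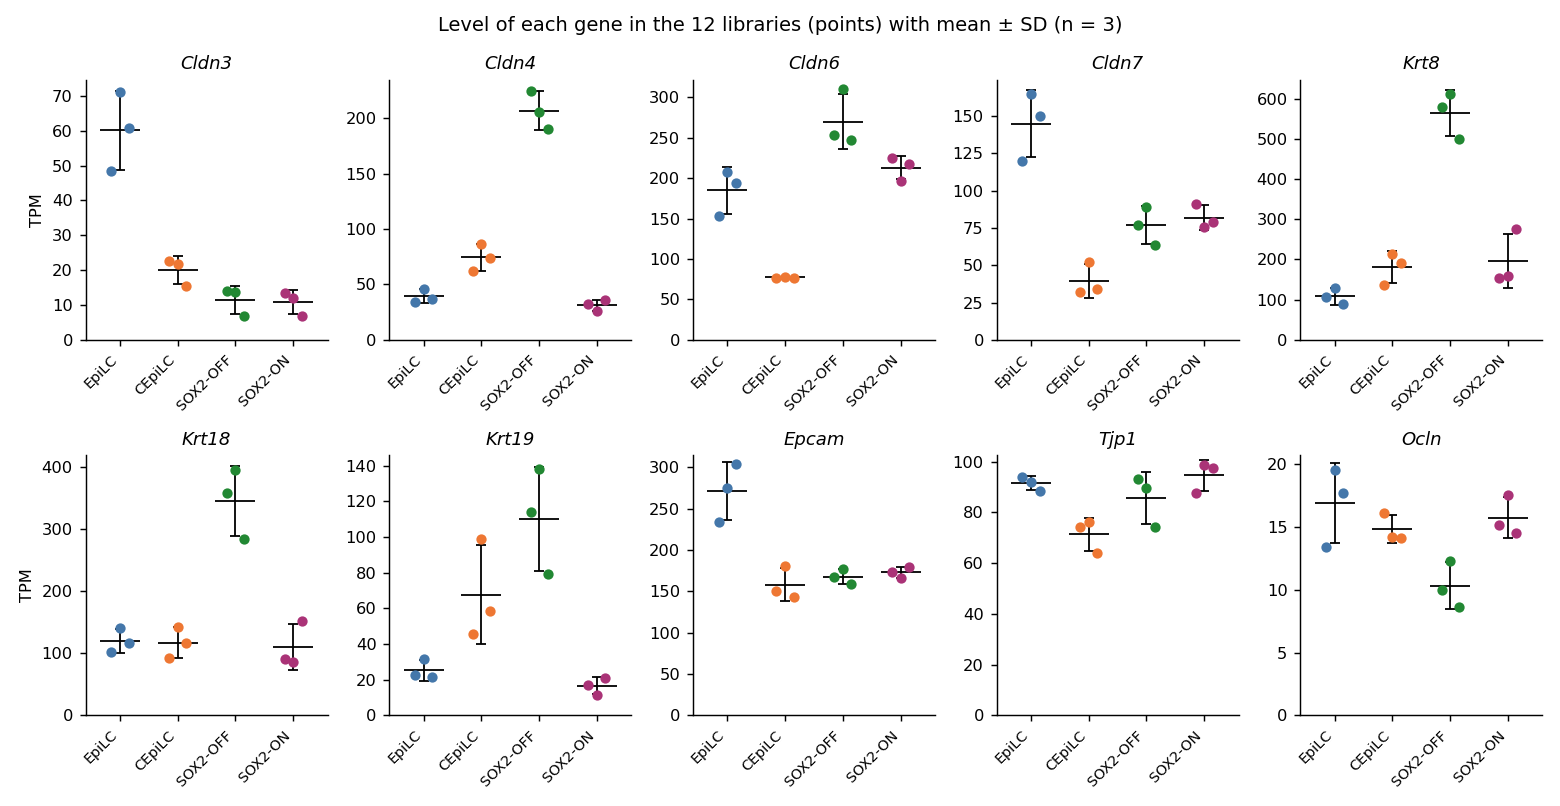
Level of each of the 10 genes in TPM (y axis, from 0) in the 12 libraries, by group (x axis). Points are libraries and bars are the mean ± SD of 3. Cldn4, Cldn6, Krt8 and Krt18 stand highest in SOX2-OFF, and Cldn3, Cldn7 and Epcam in EpiLC, each without overlap. Krt19 has its highest mean in SOX2-OFF, where it overlaps CEpiLC.

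The 6 comparisons between the groups were tested with edgeR's quasi-likelihood test over 14196 genes, and a gene was called where the Benjamini-Hochberg adjusted p was 0.05 or less. Calls with CHIR99021 in wild-type cells went in both directions, as they did over all genes. In CEpiLC against EpiLC, 3 were called higher (Cldn4, Krt8 and Krt19), where 22.1% of all genes were, and 5 were called lower (Cldn3, Cldn6, Cldn7, Epcam and Tjp1), where 20.1% were. Their log2 fold changes ran from -1.85 to 1.49 with a median of -0.26, against 0.01 for all genes.

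In SOX2-OFF against CEpiLC, 7 were called higher and 2 lower, where 23.6% and 24.9% of all genes were. The 2 that fell were Cldn3 and Ocln, and Epcam was not called. The median of the 10 was 0.85, against -0.01 for all genes. In SOX2-ON against CEpiLC, 3 were higher (Cldn6, Cldn7 and Tjp1) and 3 lower (Cldn3, Cldn4 and Krt19), where 27.9% and 28.6% of all genes were. Both comparisons used the same CEpiLC libraries.

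Within the inducible line, SOX2-ON against SOX2-OFF, 5 genes were called lower (Cldn4, Cldn6, Krt8, Krt18 and Krt19), where 14.1% of all genes were, and Ocln was the 1 called higher, where 14.8% were. The median of the 10 was -0.28, against -0.01 for all genes. Cldn3, Cldn7, Epcam and Tjp1 were not called, with log2 fold changes of -0.17, 0.03, -0.01 and 0.09. Against EpiLC, SOX2-ON had 1 gene higher (Krt8) and 4 lower (Cldn3, Cldn4, Cldn7 and Epcam), where 30.7% and 29.1% of all genes were. SOX2-OFF against EpiLC had 5 higher (Cldn4, Cldn6, Krt8, Krt18 and Krt19) and 4 lower (Cldn3, Cldn7, Epcam and Ocln), where 31.5% and 30.6% were.

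**Figure D2:**
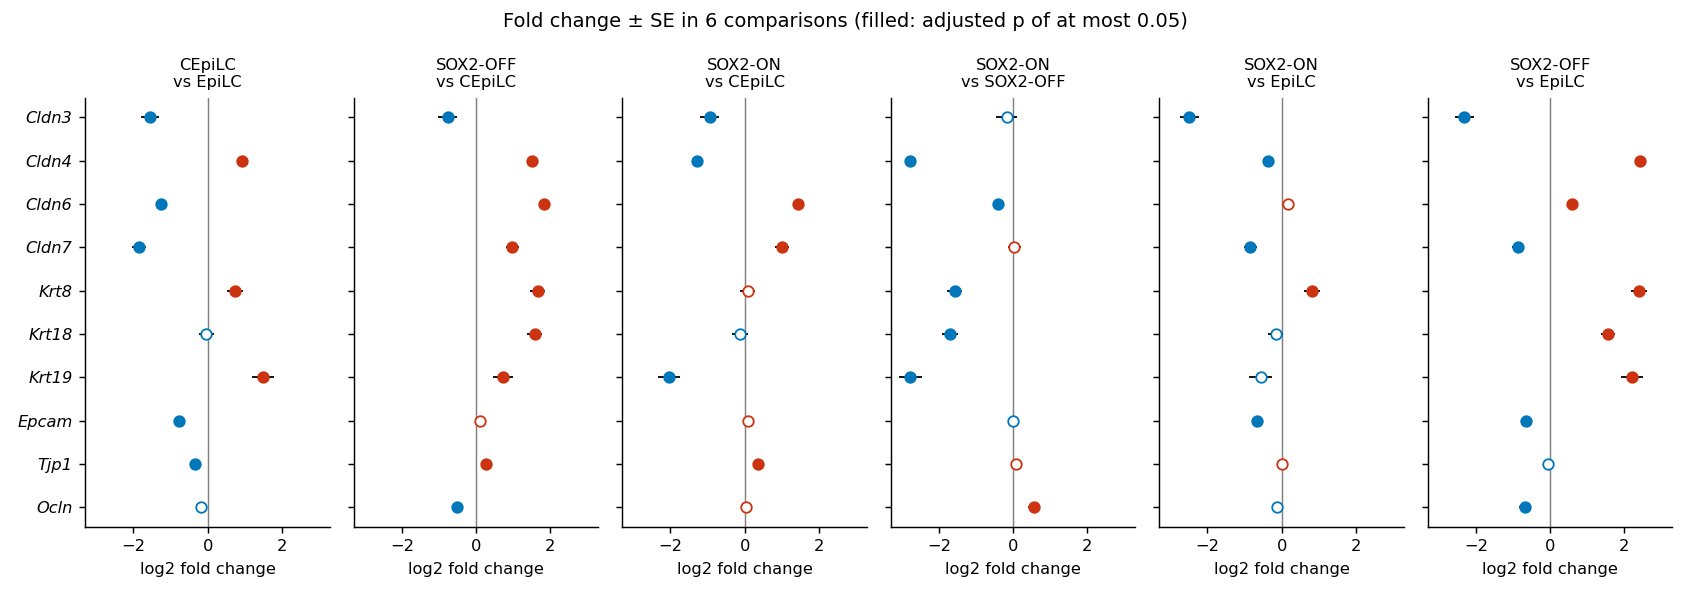
Log2 fold change (x axis) with its standard error for each gene (rows) in the 6 comparisons (panels). Filled points had an adjusted p of 0.05 or less, red higher and blue lower in the first-named group. In SOX2-ON against SOX2-OFF, 5 points are filled blue and 1 red.

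Of the claudins, Cldn4, which binds the toxin of Clostridium perfringens and limits sodium passage, moved most. Its levels in replicates 1 to 3 were 34.4, 46.2 and 37.3 TPM in EpiLC and 62, 86.8 and 74.3 TPM in CEpiLC. They were 225, 206 and 190 TPM in SOX2-OFF and 32.1, 25.9 and 36 TPM in SOX2-ON. The 3 SOX2-OFF libraries stood far above all others, CEpiLC came second, and EpiLC and SOX2-ON overlapped. Cldn4 rose 1.89-fold with CHIR99021 (log2 0.92 ± 0.14 SE, adjusted p = 0.000176). It was a further 2.82-fold higher in SOX2-OFF than in CEpiLC (log2 1.50 ± 0.13, adjusted p = 1.79e-06). With Sox2 sustained it was 6.85-fold lower than in SOX2-OFF (log2 -2.78 ± 0.14, adjusted p = 7.99e-08). Its SOX2-ON level was near that of EpiLC: the difference of -0.36 ± 0.14 (log2) was called at an adjusted p of 0.0465. That call rested on single libraries: without EpiLC replicate 2 the value was -0.22 (adjusted p = 0.228) and without SOX2-ON replicate 2 it was -0.23 (adjusted p = 0.194), and it was lost in 12 of 22 alternative settings.

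Its neighbour Cldn3, a sealing claudin that serves as a receptor of the same toxin, had a different order. Its levels were 48.4, 71 and 60.7 TPM in EpiLC, then 22.7, 21.8 and 15.4 TPM in CEpiLC. In SOX2-OFF they were 14, 13.6 and 6.95 TPM, and in SOX2-ON 13.4, 12 and 6.93 TPM. EpiLC stood above every other library, CEpiLC came next, and the 2 inducible groups overlapped fully. Cldn3 fell 2.94-fold with CHIR99021 (log2 -1.56 ± 0.24, adjusted p = 0.000235). It was 1.91-fold lower in SOX2-ON than in CEpiLC (log2 -0.94 ± 0.26, adjusted p = 0.00841). In SOX2-OFF it was 1.7-fold lower than in CEpiLC (log2 -0.77 ± 0.26, adjusted p = 0.0287). The last call was lost without CEpiLC replicate 1 (-0.65, adjusted p = 0.103), CEpiLC replicate 2 (-0.72, adjusted p = 0.0691) or SOX2-OFF replicate 3 (-0.55, adjusted p = 0.0986).

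The ratio of Cldn3 to Cldn4 brought the neighbours together. In EpiLC it was 1.41, 1.54 and 1.63, so Cldn3 was the more abundant. In CEpiLC it was 0.366, 0.252 and 0.208. The SOX2-OFF ratios were the lowest, at 0.0623, 0.0659 and 0.0366. Those of SOX2-ON were 0.417, 0.463 and 0.193 and overlapped CEpiLC. The other 5 pairs of groups did not overlap. An exact permutation test of 3 libraries against 3 cannot go below p = 0.1 (two-sided), and those 5 pairs reached it, with an adjusted p of 0.133 over the 12 ratio tests.

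Cldn6, a claudin of early embryonic epithelium and pluripotent cells, was at 153, 208 and 194 TPM in EpiLC. In CEpiLC it was at 76.7, 77.7 and 76.9 TPM. In SOX2-OFF it reached 253, 310 and 247 TPM, and in SOX2-ON 225, 197 and 217 TPM. CEpiLC lay below all other libraries and SOX2-OFF above them, while EpiLC and SOX2-ON overlapped. The fall with CHIR99021 was 2.38-fold (log2 -1.25 ± 0.11, adjusted p = 1.73e-06). Against CEpiLC it was 3.55-fold higher in SOX2-OFF (log2 1.83 ± 0.11, adjusted p = 1.29e-07) and 2.7-fold higher in SOX2-ON (log2 1.43 ± 0.11, adjusted p = 3.35e-07). Within the line it was 1.32-fold lower in SOX2-ON (log2 -0.40 ± 0.11, adjusted p = 0.0133), a call lost without SOX2-OFF replicate 2 (-0.28, adjusted p = 0.0713) or SOX2-ON replicate 2 (-0.33, adjusted p = 0.0607).

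Cldn7, the claudin that complexes with Epcam, was at 120, 165 and 150 TPM in EpiLC and at 32.2, 52.3 and 33.9 TPM in CEpiLC. It was at 77.3, 89.4 and 63.8 TPM in SOX2-OFF and at 91.1, 75.7 and 79.3 TPM in SOX2-ON. EpiLC was highest, CEpiLC lowest, and the inducible groups lay between them and overlapped. It fell 3.6-fold with CHIR99021 (log2 -1.85 ± 0.18, adjusted p = 4.08e-06), the largest fall of the 10 genes in that comparison. Against CEpiLC it was higher in SOX2-OFF (log2 0.98 ± 0.18, adjusted p = 0.000568) and in SOX2-ON (log2 1.01 ± 0.18, adjusted p = 0.000355). Both values were measured on a chromosome with a lower median in that line, and with the median of its chromosome removed they were 1.53 and 1.56. Against EpiLC it was lower in SOX2-OFF (log2 -0.87 ± 0.17, adjusted p = 0.00065) and SOX2-ON (log2 -0.84 ± 0.17, adjusted p = 0.000828). With the chromosome shift removed, neither was called: -0.33 (adjusted p = 0.123) and -0.29 (adjusted p = 0.174).

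The make-up of the claudin transcripts followed from these levels. The 31 numbered claudin genes in the table summed to means of 484 ± 65.6, 269 ± 23.1, 608 ± 56.4 and 394 ± 24.7 TPM (SD, n = 3) in EpiLC, CEpiLC, SOX2-OFF and SOX2-ON. The claudin-domain genes Cldnd1 and Cldnd2 were not part of this sum. Cldn6 had the largest mean share in each group, at 38.2, 28.8, 44.3 and 54.1%, but in CEpiLC it overlapped Cldn4, which was above it in replicate 2 (29.3 against 26.3%). Cldn4 made up 8.13% in EpiLC, 27.5% in CEpiLC and 34.1% in SOX2-OFF, but 7.93% in SOX2-ON. Cldn7 took 29.9% in EpiLC, 14.5 and 12.6% in CEpiLC and SOX2-OFF, and 20.8% in SOX2-ON. Cldn3 went from 12.4% in EpiLC to 7.43% in CEpiLC, and took 2.74% in SOX2-ON and 1.87% in SOX2-OFF. These shares are of 1 sum, so a rise in one lowers the others. Cldn7 lies on chromosome 11, whose median was lower in the inducible line, and the shares were not adjusted for that shift. No test was run on the shares.

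**Figure D3:**
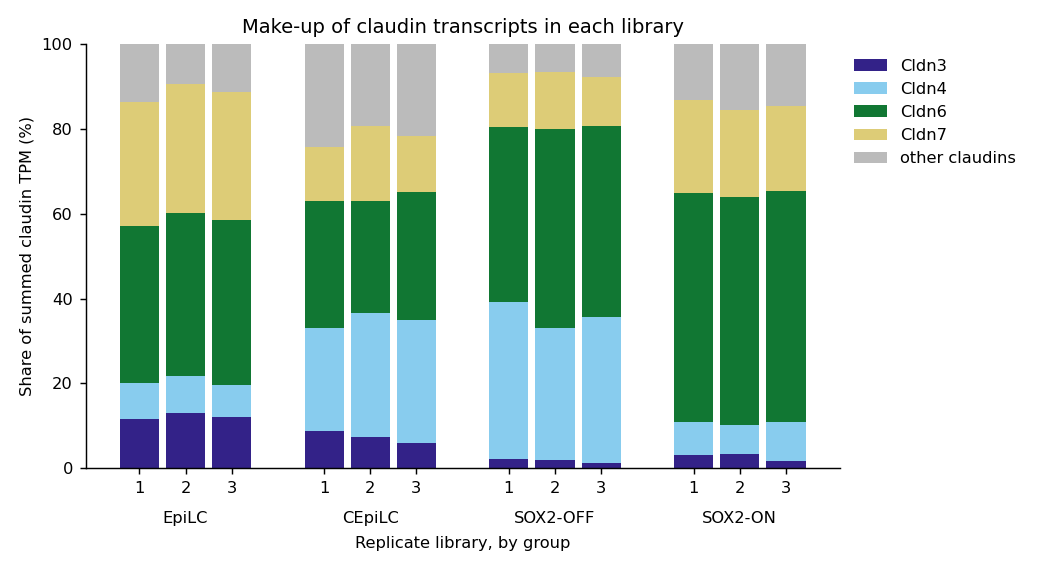
Share of the summed claudin TPM (y axis, %) taken by Cldn3, Cldn4, Cldn6, Cldn7 and all other claudins in each of the 12 libraries (bars, by group). The Cldn4 share is largest in the SOX2-OFF libraries, at 31.1 to 36.8%, and is 7.03 to 9.06% in SOX2-ON.

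Ocln and Tjp1 moved less than the claudins. Ocln was at 13.4, 19.5 and 17.7 TPM in EpiLC and 16.1, 14.2 and 14.1 TPM in CEpiLC. In SOX2-OFF it was at 9.93, 12.3 and 8.59 TPM, and in SOX2-ON at 15.1, 17.5 and 14.5 TPM. The SOX2-OFF libraries were below all others, and the other 3 groups overlapped. Ocln was 1.42-fold lower in SOX2-OFF than in CEpiLC (log2 -0.51 ± 0.15, adjusted p = 0.0124) and 1.47-fold higher in SOX2-ON than in SOX2-OFF (log2 0.55 ± 0.15, adjusted p = 0.0135). The first was lost without CEpiLC replicate 1 (-0.43, adjusted p = 0.0595) or SOX2-OFF replicate 3 (-0.41, adjusted p = 0.0518). The second was lost without SOX2-OFF replicate 1 (0.51, adjusted p = 0.0511), SOX2-OFF replicate 3 (0.46, adjusted p = 0.0563) or SOX2-ON replicate 2 (0.48, adjusted p = 0.0567).

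Tjp1 levels were 93.9, 92 and 88.4 TPM in EpiLC and 74.1, 76.1 and 64.1 TPM in CEpiLC. They were 93.1, 89.8 and 74.1 TPM in SOX2-OFF and 87.6, 98.7 and 97.4 TPM in SOX2-ON. CEpiLC was lowest, although SOX2-OFF replicate 3 reached into its range. The fall with CHIR99021 was 1.27-fold (log2 -0.35 ± 0.08, adjusted p = 0.00336), and SOX2-ON stood 1.29-fold above CEpiLC (log2 0.37 ± 0.08, adjusted p = 0.00159). SOX2-OFF was called higher than CEpiLC as well (log2 0.28 ± 0.08, adjusted p = 0.0115), but not without SOX2-OFF replicate 1 (0.23, adjusted p = 0.0554).

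The keratins had their highest means in SOX2-OFF. Krt8, the type II partner, was at 106, 130 and 89.2 TPM in EpiLC and 137, 214 and 191 TPM in CEpiLC. It reached 580, 612 and 501 TPM in SOX2-OFF and 154, 159 and 275 TPM in SOX2-ON. No other library came near the 3 of SOX2-OFF, CEpiLC and SOX2-ON overlapped, and EpiLC lay below both. Krt8 was 3.17-fold higher in SOX2-OFF than in CEpiLC (log2 1.66 ± 0.21, adjusted p = 3.24e-05) and was 2.99-fold lower in SOX2-ON than in SOX2-OFF (log2 -1.58 ± 0.21, adjusted p = 0.000118). With CHIR99021 in wild-type cells it rose 1.67-fold (log2 0.74 ± 0.21, adjusted p = 0.0141). That call was lost without EpiLC replicate 3 (0.61, adjusted p = 0.0601) or CEpiLC replicate 2 (0.61, adjusted p = 0.0572).

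Krt18, its type I partner, was at 102, 140 and 116 TPM in EpiLC and 92.8, 142 and 117 TPM in CEpiLC. It was at 357, 395 and 284 TPM in SOX2-OFF and at 91.4, 85.7 and 152 TPM in SOX2-ON. Apart from SOX2-OFF, which stood clear, the groups overlapped. Krt18 was 3-fold higher in SOX2-OFF than in CEpiLC (log2 1.58 ± 0.20, adjusted p = 3.4e-05) and 3.28-fold lower in SOX2-ON than in SOX2-OFF (log2 -1.71 ± 0.21, adjusted p = 4.79e-05). No change with CHIR99021 was called (log2 -0.03 ± 0.20, adjusted p = 0.93). In SOX2-ON replicate 3 both keratins were higher than in the other 2 libraries of the group. Without that library Krt18 in SOX2-ON was called lower than in EpiLC (-0.44, adjusted p = 0.0477), where the value with it was -0.16 (adjusted p = 0.532).

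The ratio of the 2 partners was highest in EpiLC. Krt18 over Krt8 was 0.968, 1.08 and 1.3 in EpiLC and 0.678, 0.663 and 0.61 in CEpiLC. The SOX2-OFF values were 0.616, 0.645 and 0.566, next to SOX2-ON values of 0.592, 0.54 and 0.552. The 3 EpiLC ratios were above the other 9. Each of the 3 comparisons with EpiLC reached p = 0.1 in the exact two-sided permutation test, the smallest that 3 against 3 allows, with an adjusted p of 0.133. SOX2-ON against CEpiLC, where the ratios did not overlap either, gave the same exact permutation p and a smaller log2 difference of -0.21. Between SOX2-ON and SOX2-OFF the ratios overlapped (exact permutation p = 0.2).

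**Figure D4:**
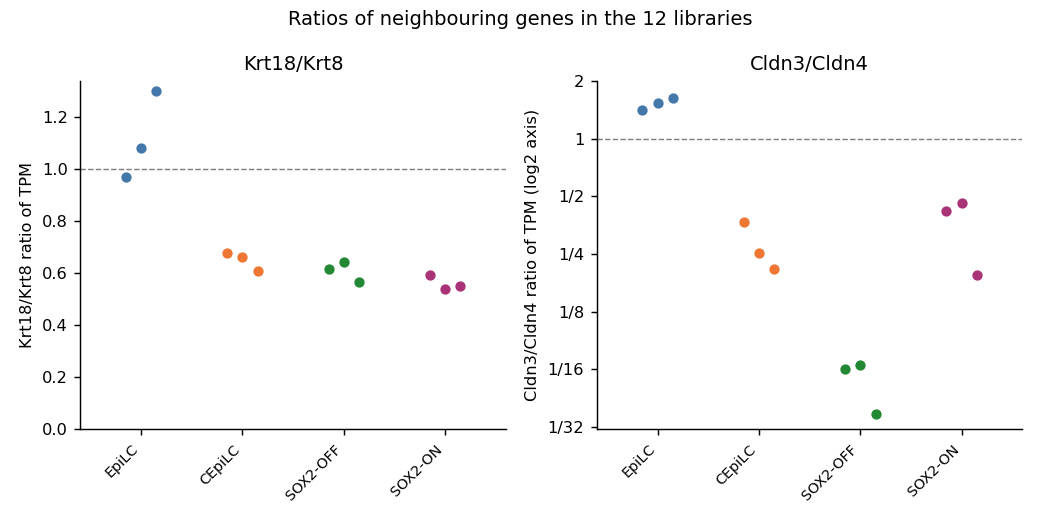
TPM ratio of Krt18 to Krt8 (left, linear axis from 0) and of Cldn3 to Cldn4 (right, log2 axis) in the 12 libraries (points), by group (x axis). The dashed line marks a ratio of 1. EpiLC ratios are the highest in both panels, and the Cldn3/Cldn4 ratio is lowest in SOX2-OFF, at 0.0366 to 0.0659.

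Krt19, a small type I keratin that lacks most of the tail domain, was at 22.7, 31.9 and 21.4 TPM in EpiLC and 45.5, 98.7 and 58.6 TPM in CEpiLC. It was at 114, 138 and 79.4 TPM in SOX2-OFF and 16.9, 11.7 and 21.1 TPM in SOX2-ON. CEpiLC and SOX2-OFF were both high and overlapped, EpiLC lay below them, and SOX2-ON was lowest. It rose 2.8-fold with CHIR99021 (log2 1.49 ± 0.29, adjusted p = 0.00118). With Sox2 sustained it was 6.82-fold lower than in SOX2-OFF (log2 -2.77 ± 0.30, adjusted p = 2.08e-05) and 4.13-fold lower than in CEpiLC (log2 -2.05 ± 0.30, adjusted p = 7.35e-05). The last of these crosses lines, and with the chromosome 11 shift removed it was -1.49 (adjusted p = 0.0012). SOX2-ON was not called against EpiLC (log2 -0.56, adjusted p = 0.136), and with the shift removed the value was -0.01.

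Krt19 in SOX2-OFF against CEpiLC was a close call, at log2 0.72 ± 0.27 (adjusted p = 0.041). Over the 22 alternative settings the value ran from 0.49 to 1.27 and the adjusted p from 0.00264 to 0.157. Without CEpiLC replicate 1 it was 0.49 (adjusted p = 0.148) and without SOX2-OFF replicate 2 it was 0.56 (adjusted p = 0.157). It was also lost without CEpiLC replicate 3, SOX2-OFF replicate 1, EpiLC replicate 1 or SOX2-ON replicate 1, at 0.66, 0.72, 0.73 and 0.72. DESeq2 (adjusted p = 0.0737), scaling by library size only (adjusted p = 0.0547) and a fit of the 6 libraries compared (adjusted p = 0.0641) did not call it either. With the chromosome shift removed it was larger, at 1.27 (adjusted p = 0.00264).

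Epcam was at 234, 275 and 304 TPM in EpiLC and 151, 181 and 143 TPM in CEpiLC. It was at 168, 177 and 159 TPM in SOX2-OFF and 174, 166 and 180 TPM in SOX2-ON. The 3 groups that received CHIR99021 overlapped, and EpiLC stood above all of them. Epcam fell 1.7-fold with CHIR99021 (log2 -0.76 ± 0.09, adjusted p = 2.08e-05). SOX2-OFF and SOX2-ON were 1.58-fold and 1.59-fold below EpiLC (log2 -0.66 ± 0.09, adjusted p = 2.79e-05, and -0.67 ± 0.09, adjusted p = 2.6e-05). Among the CHIR99021 groups no difference was called, with log2 values of 0.10, 0.09 and -0.01. Cdh1, the E-cadherin gene of adherens junctions, also fell with CHIR99021 (log2 -0.75, from 415 to 245 TPM), but it was at 417 and 429 TPM in SOX2-OFF and SOX2-ON. It lies on chromosome 8, one of those raised in that line.

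Markers of other cell types moved with some of these genes. The 18 extraembryonic endoderm markers summed to 225 to 271 TPM in EpiLC, 137 to 154 TPM in CEpiLC and 674 to 804 TPM in SOX2-OFF. In SOX2-ON they summed to 333, 378 and 802 TPM. The third of these libraries was also the highest of its group for Krt8, Krt18, Krt19, Cldn4 and, by little, Epcam. It was the lowest of its group for Cldn3 and Ocln, and in the middle for Cldn6, Cldn7 and Tjp1. Among the 16 tested markers, 15 were called higher and 1 lower in SOX2-OFF against CEpiLC, where 23.6% and 24.9% of all genes were, and 13 higher and 1 lower in SOX2-ON against CEpiLC, where 27.9% and 28.6% were. Sparc, a matrix protein gene and the most abundant of them, made up most of the sum in EpiLC, with a mean of 206 TPM, and in CEpiLC, with a mean of 120 TPM. It was at 301, 385 and 362 TPM in SOX2-OFF and at 174, 171 and 373 TPM in SOX2-ON. The endocytic receptor gene Cubn was at 100, 80.6 and 70.5 TPM in SOX2-OFF and at 24, 34.2 and 77.4 TPM in SOX2-ON. Dab2, an adaptor of that receptor, was at 108, 149 and 123 TPM in SOX2-OFF and at 38.4, 53.4 and 124 TPM in SOX2-ON. Other members differed from these in part. Rbp4 was at 5.25 to 7.44 TPM in EpiLC, 2.38 to 5.45 TPM in CEpiLC and 1.85 to 2.08 TPM in SOX2-OFF. In SOX2-ON it was at 1.24, 1.2 and 2.87 TPM. Lrp2 was low in CEpiLC, at 1.37 to 1.91 TPM, and at 27.1 to 42 TPM in SOX2-OFF, but also at 19.9 to 37.2 TPM in EpiLC. Its SOX2-ON levels were 15.1, 25.2 and 39 TPM, so both genes were highest in the third library of that group. Afp and Apoa1 were at 0.83 TPM or less in all libraries. Ttr and Hnf4a were at 0 in CEpiLC. Their part in the keratin and claudin levels was not tested.

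In SOX2-ON replicate 3 the 3 genes stayed below their SOX2-OFF levels: Krt8 was at 275 TPM, against 501 to 612 TPM, Krt18 at 152 TPM, against 284 to 395 TPM, and Cldn4 at 36 TPM, against 190 to 225 TPM. Without that library, Krt8 in SOX2-ON against CEpiLC was -0.22 (adjusted p = 0.317), and with it 0.08 (adjusted p = 0.767). In bulk RNA, fewer cells of a type and less RNA per cell cannot be told apart.

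**Figure D5:**
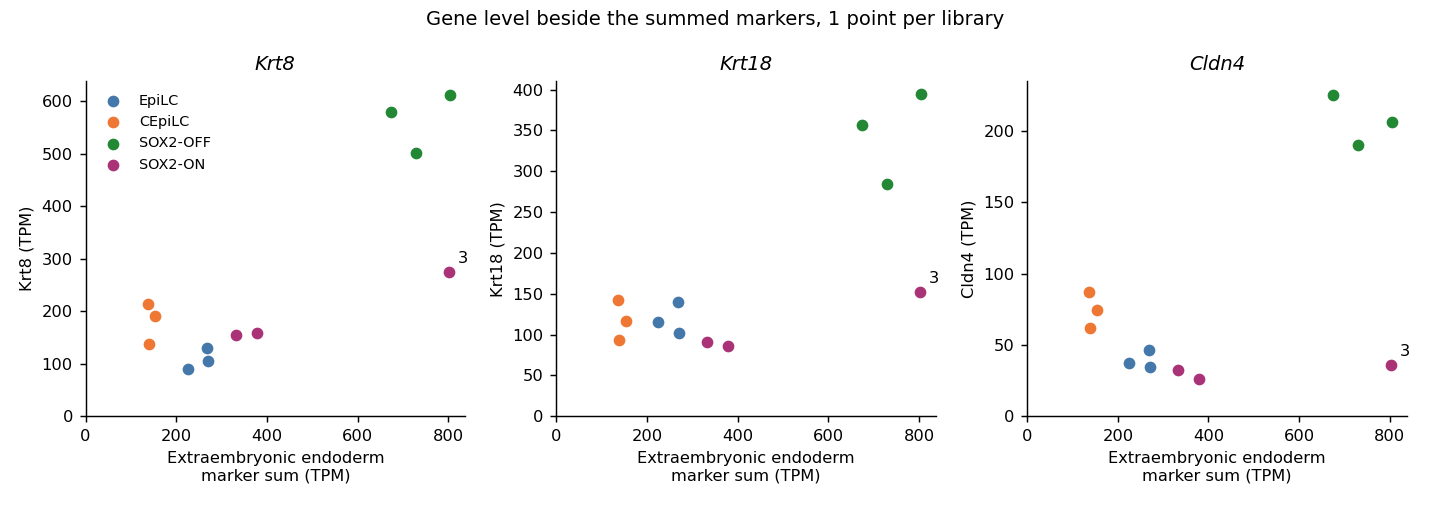
Level of Krt8, Krt18 and Cldn4 (y axes, TPM) beside the summed TPM of 18 extraembryonic endoderm markers (x axes) in the 12 libraries (points, coloured by group). The third SOX2-ON library, numbered 3, has a marker sum of 802 TPM, in the range of SOX2-OFF, with Krt8 at 275 TPM, Krt18 at 152 TPM and Cldn4 at 36 TPM, each below the SOX2-OFF libraries.

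Other marker lists gave smaller or different movements. The 12 trophoblast markers summed to 25.6 to 30.7 TPM in EpiLC and between 45 and 82 TPM in the other groups. Of the list, Tpbpa and Prl3d1 were at 0 in all libraries. Ets2 made up most of the sum in EpiLC, CEpiLC and SOX2-OFF, with means of 21.6, 48.2 and 44.8 TPM. In SOX2-ON its mean was lower, at 18.3 TPM. Of the 9 tested, 6 were higher and 0 lower in SOX2-OFF than in CEpiLC, where 23.6% and 24.9% of all genes were, and 5 were higher and 2 lower in SOX2-ON than in CEpiLC, where 27.9% and 28.6% were. Tfap2c was at 0.62 to 1.05 TPM in EpiLC and 25.7 to 41.5 TPM in SOX2-ON. Esx1 was at most 0.3 TPM in EpiLC and at 4.82 to 7.22 TPM in SOX2-OFF and 6.95 to 12.8 TPM in SOX2-ON. The 8 surface ectoderm markers summed to 2.04 to 2.58 TPM in EpiLC, 6.99 to 17.8 TPM in CEpiLC, 9.13 to 13.5 TPM with SOX2 off and 27.2 to 34.9 TPM with it on. Of these, Tfap2a was at most 0.32 TPM in EpiLC and at 17.3 to 23.8 TPM in SOX2-ON. Its means were 0.167 TPM in CEpiLC and 0.78 TPM in SOX2-OFF. Grhl3 had a mean of 1.01 TPM in EpiLC. Its means in CEpiLC, SOX2-OFF and SOX2-ON were 8.56, 9.48 and 8.96 TPM, so it did not set SOX2-ON apart. Krt5 was at 0.33 TPM or less in all libraries. The 12 feeder fibroblast markers summed to 27.3 to 93 TPM. The 9 definitive endoderm markers reached 973 to 1285 TPM in SOX2-ON, of which Trh was 921 to 1262 TPM, and at most 105 TPM elsewhere. The labelled cell states showed in the 8 epiblast markers, at 2810 to 3250 TPM in EpiLC and 862 to 1777 TPM elsewhere, and in the 9 caudal epiblast and streak markers, at 2.71 to 3.96 TPM in EpiLC, 1525 to 1793 TPM in CEpiLC, 979 to 1003 TPM in SOX2-OFF and 252 to 305 TPM in SOX2-ON. The part of these lists in the results was not tested.

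Of 24 other claudin genes on the list, 7 passed the filter on low counts. The most abundant were Cldn12, which ran between 39.2 and 51.4 TPM over all libraries, and the claudin-domain gene Cldnd1, between 38.9 and 58.6 TPM. With CHIR99021 Cldnd1 rose by 0.39 ± 0.08 (log2, adjusted p = 0.00221), and in SOX2-OFF Cldn12 was lower than in CEpiLC (log2 -0.32 ± 0.06, adjusted p = 0.000734). Cldn1 was lower in CEpiLC than in EpiLC (log2 -3.36 ± 0.33, adjusted p = 4.53e-06), at mean levels of 3.22 and 0.3 TPM. The endothelial claudin Cldn5 was at 0.09, 0.17 and 0.41 TPM in SOX2-OFF and at 6.76, 4.88 and 4.34 TPM in SOX2-ON, and since no SOX2-OFF library had more than 3 counts of it, no fold is given. Cldn9, which lies beside Cldn6, was also higher in SOX2-ON than in SOX2-OFF (log2 1.98 ± 0.40, adjusted p = 0.00219), at 1.98 and 0.453 TPM, while Cldn6 was lower there. Cldn1, Cldn5 and Cldn9 were named here after their values were seen.

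Of 25 other genes of tight junction strands, scaffolds and polarity complexes, 14 fell with CHIR99021 and 1 rose, where 20.1% and 22.1% of all genes did, with a median log2 change of -0.27 against 0.01 for all genes. The largest falls were those of the paracingulin gene Cgnl1 (log2 -2.45 ± 0.15, adjusted p = 7.66e-08) and the apical polarity gene Crb3 (log2 -2.12 ± 0.23, adjusted p = 1.05e-05). In SOX2-OFF against CEpiLC 14 were higher and 5 lower, where 23.6% and 24.9% of all genes were. In SOX2-ON against CEpiLC 14 were higher and 6 lower, where 27.9% and 28.6% were. Crb3 was at a mean of 43.7 TPM in EpiLC, 10 TPM in CEpiLC, 35.9 TPM in SOX2-OFF and 38.9 TPM in SOX2-ON, with CEpiLC lowest as for Cldn6 and Cldn7. Within the line 6 were higher and 4 lower in SOX2-ON, against 14.8% and 14.1% of all genes. Ildr1, of tricellular junctions, rose there (log2 0.70 ± 0.19, adjusted p = 0.0158), and its relative Ildr2 fell (log2 -0.97 ± 0.30, adjusted p = 0.0263).

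Among 11 tested genes of other simple epithelial keratins and filament linkers, 7 fell with CHIR99021 and 1 rose, where 20.1% and 22.1% of all genes did. The riser was desmoplakin (Dsp), which anchors keratin to desmosomes, at a mean of 6.19 TPM in EpiLC and 28.6 TPM in CEpiLC (log2 2.20 ± 0.17, adjusted p = 5.11e-07). In SOX2-OFF Dsp reached 62 TPM, and in SOX2-ON it was at 18.2 TPM (log2 -1.82 ± 0.16 between them, adjusted p = 4.12e-06). The linkers Eppk1 and Ppl went the other way with CHIR99021, Eppk1 from a mean of 2.04 to 0.503 TPM (adjusted p = 0.00011) and Ppl from 5.57 to 2.55 TPM (adjusted p = 0.000639). In SOX2-OFF against CEpiLC 6 of the 11 were higher and 0 lower, where 23.6% and 24.9% of all genes were, at a median of 1.05 against -0.01 for all genes. Within the line 3 were lower in SOX2-ON and 1 higher, where 14.1% and 14.8% of all genes were.

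The 8 tested desmosome genes, of which Dsp and plakoglobin (Jup) also count among the linkers, had 6 higher and 0 lower in SOX2-OFF than in CEpiLC, where 23.6% and 24.9% of all genes were. They had 5 lower and 1 higher in SOX2-ON than in SOX2-OFF, where 14.1% and 14.8% were. Pkp3, a plakophilin, rose most in the first (log2 2.81 ± 0.24, adjusted p = 1.09e-06). Jup fell in the second (log2 -0.94 ± 0.14, adjusted p = 0.00021), and Pkp2 was the 1 that rose (log2 0.51 ± 0.08, adjusted p = 0.000479). With CHIR99021 in wild-type cells 3 rose and 4 fell, where 22.1% and 20.1% of all genes did.

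Of 24 genes of adherens junctions and Epcam partners, 9 fell and 4 rose with CHIR99021, where 20.1% and 22.1% of all genes did. Spint1, an inhibitor of membrane serine proteases, rose (log2 0.99 ± 0.09, adjusted p = 1.66e-06) and the protease gene Prss8 fell (log2 -0.78 ± 0.11, adjusted p = 0.000136). In SOX2-OFF against CEpiLC 12 were higher and 5 lower, where 23.6% and 24.9% of all genes were, and in SOX2-ON against CEpiLC 11 and 8, where 27.9% and 28.6% were. The tetraspanin Cd9, which associates with Epcam, was higher in both (log2 2.39 ± 0.17, adjusted p = 3.02e-07, and 2.42 ± 0.17, adjusted p = 1.24e-07). It lies on chromosome 6, where the median gene was raised in that line by 0.54. P-cadherin (Cdh3) was higher in SOX2-ON than in SOX2-OFF (log2 1.60 ± 0.16, adjusted p = 9.01e-06), one of 2 that rose within the line, where 7 fell, against 14.8% and 14.1% of all genes.

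Of 18 tested epithelial regulators, 12 were higher in SOX2-OFF and 15 in SOX2-ON than in CEpiLC, and 0 were lower in either. Of all genes, 23.6% and 27.9% were higher in these comparisons and 24.9% and 28.6% lower. Klf4 was higher in both (log2 2.15 ± 0.19, adjusted p = 1.65e-06, and 2.60 ± 0.19, adjusted p = 2.1e-07). Tfap2c was at means of 3.6 TPM in SOX2-OFF and 31.1 TPM in SOX2-ON (log2 3.02 ± 0.26, adjusted p = 4.06e-06). With CHIR99021 in wild-type cells 6 rose and 7 fell, against 22.1% and 20.1% of all genes. Grhl3, a grainyhead factor of surface epithelium, rose (log2 3.08 ± 0.37, adjusted p = 2.93e-05), and Rab25 and Ap1m2, genes of polarised membrane traffic, fell (log2 -3.19 ± 0.28, adjusted p = 1.92e-06, and -2.17 ± 0.19, adjusted p = 1.81e-06). Rab25 stayed at means of 4.93 to 5.55 TPM in all 3 CHIR99021 groups, against 49.9 TPM in EpiLC.

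Of 8 repressors of claudins and Epcam, 4 rose and 0 fell with CHIR99021, where 22.1% and 20.1% of all genes did. Snai1 went from 3.78, 2.31 and 5.67 TPM to 15.3, 21.6 and 56.1 TPM (log2 2.99 ± 0.50, adjusted p = 0.000411). It was at 28.1, 27.1 and 53.1 TPM in SOX2-OFF and at 7.35, 4.64 and 7.43 TPM in SOX2-ON. CEpiLC and SOX2-OFF overlapped and both stood above EpiLC and SOX2-ON. Snai1 was lower in SOX2-ON than in SOX2-OFF (log2 -2.52 ± 0.47, adjusted p = 0.00137), as was Zeb2 (log2 -0.79 ± 0.22, adjusted p = 0.0157). CEpiLC and SOX2-OFF, with the highest Snai1, were also the groups with the highest mean Cldn4 and Krt19, and no relation between them was tested.

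For each gene, those with the most similar pattern over the 12 libraries were found by the root mean square difference of centred log2 values, among 10862 genes, with the 10 left out of the search. For Cldn7 this was Galnt3, an O-glycosylation enzyme, at 0.12, with means of 27.3, 7.65, 14 and 17 TPM in EpiLC, CEpiLC, SOX2-OFF and SOX2-ON. For Cldn6 it was Arhgef16 at 0.20, and for Cldn4 Slc16a10 at 0.28, with means of 4.84, 10.6, 25.6 and 5.72 TPM. For Krt19 it was St8sia4 at 0.42, also the second gene for Cldn4 at 0.42. For Krt8 it was Mttp, a lipoprotein assembly gene, at 0.24, and for Krt18 Clic6 at 0.31. For Cldn3 it was 2900011O08Rik at 0.18. Epcam, Tjp1 and Ocln, which varied little, came closest to Hbp1 at 0.11, Gpatch4 at 0.06 and Gpank1 at 0.13. Among the 10 genes themselves, the smallest differences were those of Epcam and Tjp1 at 0.29 and of each of these with Ocln at 0.34. The measure is small for any genes that vary little, and these had log2 SDs of 0.32 (Epcam), 0.17 (Tjp1) and 0.31 (Ocln). Their patterns differed: Epcam was highest in EpiLC, Tjp1 lowest in CEpiLC and Ocln lowest in SOX2-OFF. Next came Cldn4 and Krt19 at 0.37, closer than either was to St8sia4, and the filament partners Krt8 and Krt18 at 0.40. The libraries share groups and lines, so these values describe likeness over 12 points only.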

How the data were processed

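Strand-specific, single-end poly(A) RNA-seq libraries of 76 bp reads were made from 12 cultures. Per the labels and the study's methods, the authors trimmed reads with cutadapt 1.16, aligned them to mm10 with STAR 2.5.2a and quantified RefSeq genes with RSEM 1.3.0. The deposited table holds RSEM expected counts, estimated per gene and not normalized, of which 2.59 to 3.43% per library were not whole. It also holds the TPM values that the authors' RSEM run gave. The counts of the 10 genes were whole in all 12 libraries.

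Expected counts were rounded, and 14196 of 24736 genes passed edgeR's filterByExpr. Groups were compared by the quasi-likelihood test of edgeR 4.0.16 (R 4.3.3) with TMM factors of 0.97 to 1.02, 1 model of 12 libraries, no covariates and Benjamini-Hochberg adjustment over all genes tested, for 6 comparisons. The study itself used DESeq2, run here as an alternative (version 1.42.0). Standard errors came from the F statistic. TPM served for levels, shares and ratios, and ratios were compared by exact permutation. The fit was tested on simulated data. Chromosome shifts are medians over genes of mean log2 CPM of at least 4. The 12 replicates give 8 residual degrees of freedom. No pair of replicates was alike within sampling noise (chi-square per degree of freedom 7.73 to 44.4). The labels do not say whether shared replicate numbers mark paired cultures. Deviations of same-numbered libraries correlated at 0.12, 0.132 and 0.103 for EpiLC and CEpiLC. For SOX2-OFF and SOX2-ON with CEpiLC they correlated at 0.0526 to 0.201, and in the remaining comparisons at -0.0151 to 0.108. These values do not single out a pairing of EpiLC and CEpiLC. The main model did not use the numbers, and a replicate block was run as an alternative. Reads carry no molecular identifiers, so precision from depth covers counting error only.

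All 10 genes are named in each comparison. From each pathway list, up to 2 called genes per direction with the largest change were eligible for naming, where the mean was at least 2 log2 CPM and the groups did not overlap. The genes and lists were chosen with earlier results of these data known. Promoters came from RefSeq (GRCm38.p6). Amino acid sequences were not used here. The labels give no sequencing batch.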

Additional observations from a re-analysis of the deposited data

How the results depend on the processing

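The 10 genes gave 60 comparisons, each repeated under 22 alternative settings (scaling, filters, DESeq2, limma-voom, a replicate block, chromosome shift removed, 6 libraries only, each library left out, and a threshold of 0.01). Direction and side of the threshold were kept in 1257 cases, a call was lost in 43 and gained in 1, and the sign turned in 19, all of them values not called. With the replicate block, 8 genes were still called in CEpiLC against EpiLC, and the one call it ended was Cldn4 in SOX2-ON against EpiLC (-0.35, adjusted p = 0.0597). At a threshold of 0.01, the genes called in SOX2-OFF against CEpiLC went from 9 to 5, by the construction of that setting. With the chromosome shift removed, those called in SOX2-ON against EpiLC went from 5 to 3, the lost ones being Cldn4 and Cldn7, and Krt18 in CEpiLC against EpiLC turned to 0.01. With library size only, Epcam in SOX2-ON against SOX2-OFF turned to 0.01. Leaving out 1 library at a time, values not called changed sign within these ranges: in CEpiLC against EpiLC, Krt18 from -0.18 to 0.12. In SOX2-ON against CEpiLC, Krt8 ran from -0.22 to 0.22, Krt18 from -0.41 to 0.03 and Ocln from -0.03 to 0.13. In SOX2-ON against SOX2-OFF, Cldn3 ran from -0.39 to 0.07, Cldn7 from -0.07 to 0.16 and Epcam from -0.04 to 0.03. Against EpiLC, Krt18 in SOX2-ON ran from -0.44 to 0.00, Tjp1 in SOX2-ON from -0.02 to 0.06 and Tjp1 in SOX2-OFF from -0.12 to 0.01. The calls in SOX2-OFF against CEpiLC fell to 6 without CEpiLC replicate 1, and those in SOX2-ON against SOX2-OFF to 4 without SOX2-ON replicate 2. The counts over the pathway lists stayed within 1.5 times the reported ones in 899 of 924 cases. Where a setting changed a call, the cause was not tested. Groups of 3 limit the precision, as does the depth of the shallowest library, with 10408252 expected counts.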
